A study of Mus musculus with 7 samples.

Results

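A set of 10 genes of glucose use and of the response to low oxygen was followed across cells of RAW264.7, an established mouse line that resembles macrophages, in which Dpep2 was knocked down. They are the glucose transporter gene Slc2a1, the glycolysis genes Hk2, Pfkfb3, Pkm and Ldha, the pyruvate dehydrogenase kinase gene Pdk1, the oxygen-sensing factor gene Hif1a, the hypoxia-induced genes Car9 and Ndrg1, and Acod1, which makes itaconate. They were taken by symbol from a count table of 55417 gene symbols, and all 10 of 10 were present and passed the filter on low counts that left 13329 genes to test. The 7 RNA-seq libraries carried the hairpin shDpep2.968 (n = 2), the hairpin shDpep2.759 (n = 2) or the control hairpin shNT (n = 3), and no other treatment is named. Dpep2 encodes a membrane-bound dipeptidase. The labels do not say whether the cells of a hairpin were a pool or a clone, nor that libraries came from separate cultures, so the p-values measure the spread between these libraries, which may be technical.

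Glucose enters macrophages mainly through the transporter made from Slc2a1, is trapped by hexokinase and is carried through glycolysis to pyruvate, which lactate dehydrogenase turns into lactate. HIF-1 is a pair of proteins whose alpha subunit, the product of Hif1a, is destroyed when oxygen is plentiful. When that subunit persists, the pair switches on genes such as Slc2a1, Hk2, Ldha, Pdk1, Car9 and Ndrg1. Much of that control acts on the protein, so the mRNA of Hif1a need not follow it. Activated macrophages also use glycolysis heavily and make itaconate, a product of the citrate cycle intermediate cis-aconitate.

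Total counts per library ran from 16548648 to 18401060. Dpep2 itself was measured in counts per 1000000 of the TMM-scaled library total (CPM). It stood at 17.9 to 24.9 CPM in the 4 hairpin libraries, against 52.1 to 60.3 CPM in the 3 shNT libraries. Averaged over both hairpins it was at 37.8% of the shNT level (edgeR quasi-likelihood adjusted p = 8.07e-05). Dpep2 shares exonic sequence with Dpep2nb and Gm22972 on the same strand and with Dus2 and Gm45752 on the opposite strand. How reads were divided among them is not given in the sources used here. The 10 macrophage markers summed to 13200 and 13300 CPM with shDpep2.968, 15200 and 18500 CPM with shDpep2.759 and 12400 to 13800 CPM with shNT, most of it the lysozyme gene Lyz2 at 8820 to 14000 CPM. The receptor gene Csf1r had 1080 to 1400 CPM, whereas Mrc1 had at most 2.02 CPM and Mertk at most 0.347 CPM and 0 in 3 libraries. Averaged over both hairpins, 3 of the 9 tested markers were higher (Adgre1, Mrc1 and Fcgr1) and 0 lower at an edgeR adjusted p under 0.05. Over all tested genes 3.44% were higher and 4.15% lower. Mrc1 had only 10 to 35 counts per library. The 6 fibroblast markers summed to 2.20 to 3.57 CPM in hairpin libraries and to 0.725 to 1.64 CPM in shNT libraries, with Col1a2 at 0 throughout, and their part in the results was not tested. Epithelial markers summed to at most 0.173 CPM and lymphocyte markers to at most 3.29 CPM per library. Levels are from bulk RNA, in which fewer cells expressing a gene and less of its RNA per cell cannot be told apart.

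Of the 10 genes, 1 was higher and 2 were lower in the mean of both hairpins against shNT, where 7.59% of all tested genes passed the same threshold, 3.44% higher and 4.15% lower (an edgeR p under 0.05 after Benjamini-Hochberg adjustment). Pfkfb3 was the higher one, and Car9 and Ndrg1 were the lower ones. The mRNAs of the central glycolytic steps, Slc2a1, Hk2, Pkm and Ldha, and those of Pdk1 and Hif1a did not pass in this or any other comparison. Acod1 passed with shDpep2.759, and it did not pass with shDpep2.968 or on average. The median log2 difference of the 10 genes was -0.09 on the averaged comparison, against 0.003 over all tested genes. The 10 genes were chosen with earlier results of these data known, so shares over all tested genes are set beside them only as a description. All comparisons with shNT use the same 3 control libraries, so they are not independent of each other.

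**Figure D1:**
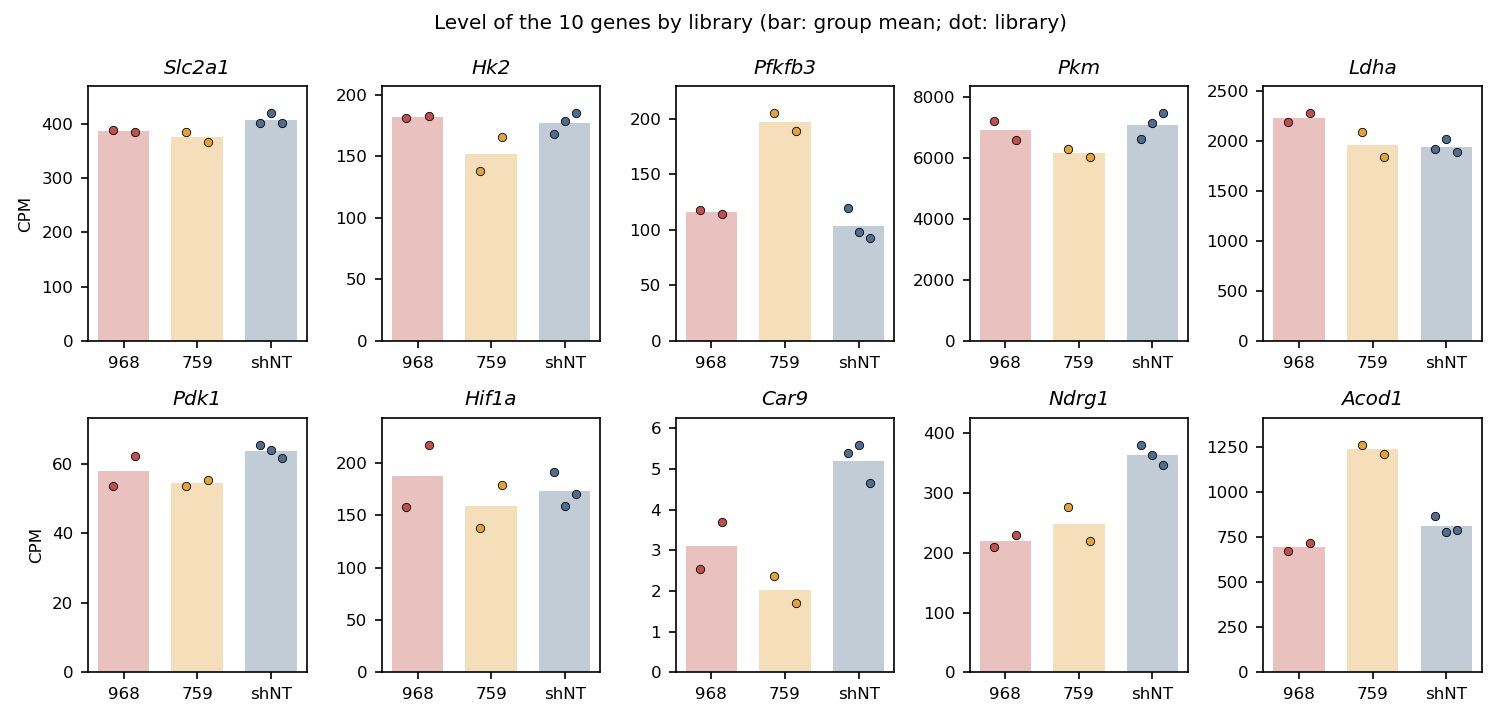
Level of each of the 10 genes in CPM (linear axis from 0) in the libraries of shDpep2.968, shDpep2.759 and shNT; bars are group means and dots are libraries. Pfkfb3 and Acod1 are high in the shDpep2.759 libraries, at 189 and 205 CPM and at 1210 and 1260 CPM, and Car9 and Ndrg1 are lower in all 4 hairpin libraries than in the 3 shNT libraries.

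The 10 genes span a wide range of abundance. Counts were divided by the length of the longest annotated transcript to set levels of different genes side by side, as CPM per kilobase. In shNT cells Pkm was the most abundant, at a mean of 2910 CPM per kilobase, followed by Ldha at 1070, Acod1 at 309, Slc2a1 at 125 and Ndrg1 at 89.9 CPM per kilobase. Hif1a followed at 36.7, Hk2 at 32.2, Pfkfb3 at 21.6, Pdk1 at 12.3 and Car9 at 2.57 CPM per kilobase. The shNT ranges of Hif1a (33.7 to 40.4 CPM per kilobase) and Hk2 (30.5 to 33.6) nearly touched, and the other neighbours in this order lay further apart. With shDpep2.968 the order was the same. With shDpep2.759 Pfkfb3, at a mean of 41.0 CPM per kilobase, stood above Hif1a at 33.6, and the ranges of Hif1a and Hk2 overlapped.

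Slc2a1, which encodes the glucose transporter GLUT1, had 389 and 385 CPM under shDpep2.968, 384 and 367 CPM under shDpep2.759, and 401, 419 and 401 CPM under shNT. All 4 hairpin values lay just below all 3 control values. The averaged log2 difference of -0.09 (SE 0.10, 95% interval -0.30 to 0.12) did not pass (edgeR adjusted p = 0.611), and the interval allows 0.81 to 1.08 times the shNT level. The libraries of both groups did not overlap for 3 of the 10 genes, Slc2a1, Car9 and Ndrg1, and for 18.5% of all tested genes.

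Hk2, the inducible hexokinase that commits glucose to the cell, had 181 and 183 CPM under shDpep2.968, 138 and 166 CPM under shDpep2.759, and 168, 179 and 185 CPM under shNT. The shDpep2.759 libraries were below the others, and the shDpep2.968 libraries lay inside the shNT range. With shDpep2.759 the log2 difference was -0.22 (95% interval -0.49 to 0.04, edgeR adjusted p = 0.347), and with shDpep2.968 it was 0.04 (95% interval -0.23 to 0.30, edgeR adjusted p = 0.883).

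Pfkfb3 encodes the enzyme that makes and removes fructose 2,6-bisphosphate, the strongest activator of phosphofructokinase in glycolysis, and its form favours synthesis. Its libraries had 118 and 114 CPM under shDpep2.968, 205 and 189 CPM under shDpep2.759, and 120, 98.3 and 92.4 CPM under shNT. Both shDpep2.759 libraries stood apart from the other 5, whereas the shDpep2.968 libraries lay within the shNT range. With shDpep2.759 Pfkfb3 rose 1.90-fold (log2 0.93, SE 0.13, 95% interval 0.65 to 1.21, edgeR adjusted p = 0.00146), and it kept this call in all 7 fits that left out 1 library. With shDpep2.968 the log2 difference was 0.16 (95% interval -0.12 to 0.45, edgeR adjusted p = 0.482). The averaged change of 1.46-fold (edgeR adjusted p = 0.0103) joins unequal values, and it did not pass without shNT replicate 2 (log2 0.50, adjusted p = 0.0865), without shNT replicate 3 (0.47, 0.102) or with all hairpin libraries as 1 group (0.60, 0.167).

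Pkm, which encodes pyruvate kinase of the last energy-yielding step, was the most abundant of the 10, with 103240 to 133830 counts per library. It had 7240 and 6610 CPM under shDpep2.968, 6310 and 6050 CPM under shDpep2.759, and 6620, 7170 and 7480 CPM under shNT. The 2 shDpep2.759 values were the lowest, but the difference of -0.20 on the log2 scale (95% interval -0.47 to 0.08) did not pass (edgeR adjusted p = 0.429). A neighbouring annotated gene, Gm49759, shares exonic sequence with Pkm on the same strand and held 1228 to 2070 counts per library, and how reads were divided between them is not given in the sources used here. The counts do not separate the splice forms of Pkm.

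Ldha, which encodes the lactate dehydrogenase subunit that favours lactate, had 2190 and 2280 CPM under shDpep2.968, 2090 and 1840 CPM under shDpep2.759, and 1920, 2020 and 1890 CPM under shNT. Both shDpep2.968 libraries exceeded the 3 shNT libraries, by 0.20 on the log2 scale (95% interval -0.07 to 0.47, edgeR adjusted p = 0.343). The shDpep2.759 libraries straddled the controls, with a log2 difference of 0.01 (95% interval -0.26 to 0.28). The pseudogenes of Ldha that the table lists, Ldha-ps2 and Ldha-ps3, had 0 counts in every library.

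Pdk1, a kinase that switches off pyruvate dehydrogenase and so keeps pyruvate out of the citrate cycle, had 53.6 and 62.3 CPM under shDpep2.968, 53.6 and 55.4 CPM under shDpep2.759, and 65.4, 64.0 and 61.7 CPM under shNT. The hairpin library shDpep2.968 replicate 2 lay within the control range and the other 3 lay below it. The averaged log2 difference was -0.18 (SE 0.10, 95% interval -0.40 to 0.03, edgeR adjusted p = 0.299).

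Hif1a, the oxygen-regulated subunit of HIF-1, differed more between libraries of 1 hairpin than between hairpins. It had 158 and 217 CPM under shDpep2.968, 138 and 179 CPM under shDpep2.759, and 191, 159 and 170 CPM under shNT. The groups overlapped, and the averaged log2 difference was -0.01 (95% interval -0.30 to 0.28, edgeR adjusted p = 0.980), an interval that allows 0.813 to 1.22 times the shNT level.

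Car9 encodes carbonic anhydrase 9, a cell-surface enzyme that helps hypoxic cells control acid and is widely used as a marker of HIF activity. The window before its RefSeq start, chr4:43506776-43507025 on the forward strand of GRCm38.p6, is shown because the gene's change is the largest of the 10. The core of the HIF binding site, ACGTG or GCGTG on either strand, is in capitals.
Car9: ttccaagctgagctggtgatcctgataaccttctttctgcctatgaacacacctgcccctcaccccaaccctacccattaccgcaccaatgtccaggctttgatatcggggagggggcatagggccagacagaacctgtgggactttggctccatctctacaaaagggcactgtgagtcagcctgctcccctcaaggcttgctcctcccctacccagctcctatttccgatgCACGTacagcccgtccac
The 1 match begins 18 bases before the RefSeq start and reads ACGTG on the opposite strand. The GENCODE annotation starts Car9 earlier, at base 43506966 inside this window, so the match lies within the gene as annotated there. A match describes the letters only and does not show that HIF-1 binds there.

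Car9 was weakly expressed, with 29 to 64 counts in the hairpin libraries and 83 to 102 counts in the shNT libraries. It had 2.54 and 3.69 CPM under shDpep2.968, 2.36 and 1.70 CPM under shDpep2.759, and 5.38, 5.59 and 4.64 CPM under shNT. All 4 hairpin libraries were below all 3 control libraries. The averaged level fell to 48.4% of shNT (log2 -1.05, SE 0.21, 95% interval -1.51 to -0.59, edgeR adjusted p = 0.0103), a call lost without shNT replicate 2 (log2 -1.0, adjusted p = 0.0593). With shDpep2.759 it fell to 39.1% of shNT (log2 -1.35, SE 0.27, edgeR adjusted p = 0.0119), a call lost without shDpep2.759 replicate 2 (log2 -1.15, adjusted p = 0.0583). With shDpep2.968 it stood at 60.0% of shNT (95% interval 0.408 to 0.881 times shNT) without passing (edgeR adjusted p = 0.112). The gene Gm12454, annotated on the opposite strand and sharing sequence with Car9 exons, held 27 to 43 counts per library, and whether the counting used strand is not given in the sources used here.

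Ndrg1, a stress-responsive gene named for its regulation downstream of the Myc family and strongly induced by hypoxia, was lower with both hairpins. It had 210 and 230 CPM under shDpep2.968, 277 and 220 CPM under shDpep2.759, and 381, 364 and 348 CPM under shNT. Every hairpin library was below every control library. The averaged level fell to 64.2% of shNT (log2 -0.64, SE 0.11, 95% interval -0.88 to -0.40, edgeR adjusted p = 0.00396) and passed in all 7 fits that left out 1 library and in all 11 other settings. With shDpep2.968 it fell to 60.3% of shNT (edgeR adjusted p = 0.00978) and with shDpep2.759 to 68.3% (edgeR adjusted p = 0.0335). The first call was lost without either shDpep2.968 library (adjusted p = 0.0741 and 0.0951). The second was lost without shDpep2.759 replicate 2 (0.138) or without shNT replicate 1, 2 or 3 (0.0793, 0.0869 and 0.0848).

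Acod1, once called Irg1, encodes the mitochondrial enzyme that makes itaconate and is induced in macrophages by inflammatory signals. It had 670 and 714 CPM under shDpep2.968, 1260 and 1210 CPM under shDpep2.759, and 867, 778 and 789 CPM under shNT. Both shDpep2.759 libraries were above, and both shDpep2.968 libraries were below, all 3 control libraries. With shDpep2.759 Acod1 rose 1.52-fold (log2 0.61, SE 0.12, 95% interval 0.34 to 0.87, edgeR adjusted p = 0.0124), and it did not pass without shNT replicate 2 (0.55, adjusted p = 0.0816) or shNT replicate 3 (0.57, 0.0839). With shDpep2.968 it stood at 85.2% of shNT (log2 -0.23, 95% interval -0.50 to 0.04, edgeR adjusted p = 0.282). The averaged log2 difference of 0.19 (edgeR adjusted p = 0.306) lies between opposite signs.

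**Figure D2:**
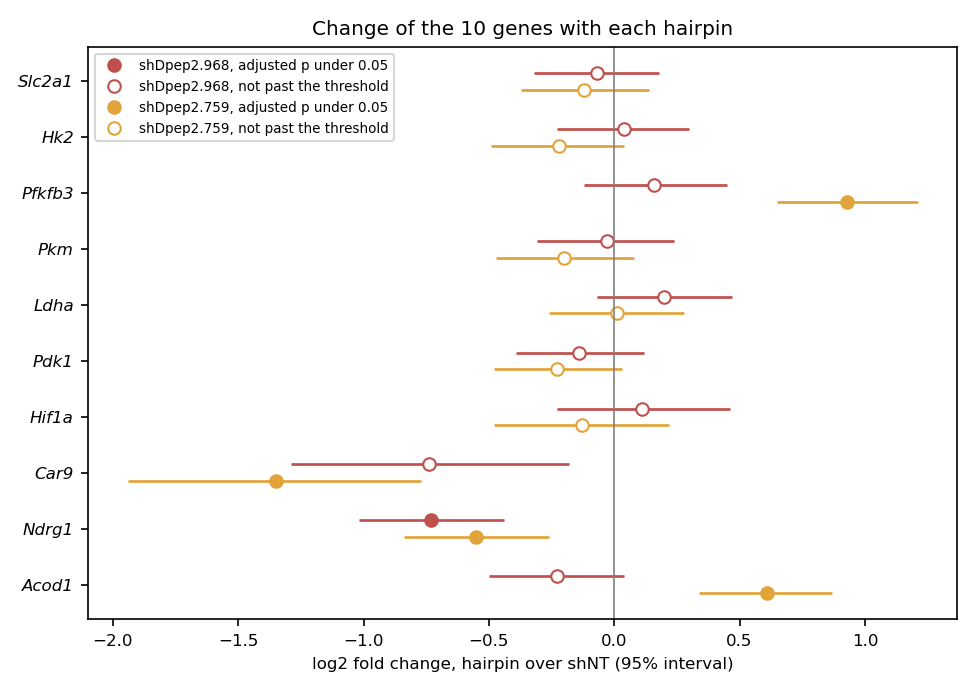
Log2 fold change of each of the 10 genes over shNT, for shDpep2.968 (upper, red) and shDpep2.759 (lower, yellow), with 95% intervals; filled circles have an edgeR adjusted p under 0.05. The hairpins lie apart for Pfkfb3 (0.16 and 0.93) and Acod1 (-0.23 and 0.61), and both lie below 0 for Car9 and Ndrg1.

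With each hairpin alone, shDpep2.968 had 1 of the 10 genes past the threshold (Ndrg1, lower), where 5.25% of all tested genes passed (2.29% higher, 2.96% lower). With shDpep2.759 the count was 4 of 10 (Pfkfb3 and Acod1 higher, Car9 and Ndrg1 lower), where 4.73% of all tested genes passed (2.72% higher, 2.00% lower). The direct comparison of shDpep2.968 with shDpep2.759 asks whether the hairpins differ, and 2 of the 10 genes passed it, where 0.840% of all tested genes passed (0.255% higher, 0.585% lower). Pfkfb3 was lower with shDpep2.968, at 58.8% of its shDpep2.759 level (log2 -0.77, SE 0.14, 95% interval -1.08 to -0.45, edgeR adjusted p = 0.0315). Acod1 was lower too, at 56.0% (log2 -0.84, SE 0.14, 95% interval -1.13 to -0.54, edgeR adjusted p = 0.0173). Dpep2 itself differed by -0.14 on the log2 scale between the hairpins (95% interval -0.51 to 0.23, edgeR adjusted p = 0.725). For Car9 the difference of 0.62 (95% interval -0.03 to 1.26, edgeR adjusted p = 0.350) and for Ndrg1 that of -0.18 (95% interval -0.49 to 0.13, edgeR adjusted p = 0.578) did not pass. The libraries of the groups compared did not overlap for 5 of the 10 genes with shDpep2.968 against shNT (43.4% of all tested genes), for 8 with shDpep2.759 against shNT (36.3%) and for 7 between the hairpins (42.9%).

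The difference between the hairpins rested on few libraries. Acod1 did not pass it without shDpep2.968 replicate 1 (adjusted p = 0.102), shDpep2.968 replicate 2 (0.166) or shNT replicate 3 (0.0578), nor in a fit of the 4 hairpin libraries alone (0.0516). Pfkfb3 did not pass when the library left out was shDpep2.968 replicate 1 (0.110) or 2 (0.247), shDpep2.759 replicate 1 (0.114), or replicate 2 (0.0639) or 3 (0.0716) of shNT, nor with the hairpin libraries alone (0.0574), limma-voom (0.0576) or no robust estimation (0.0544). The log2 difference kept its sign in all of these, from -0.88 to -0.78 for Acod1 and from -0.81 to -0.71 for Pfkfb3 over the fits without 1 library.

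**Figure D3:**
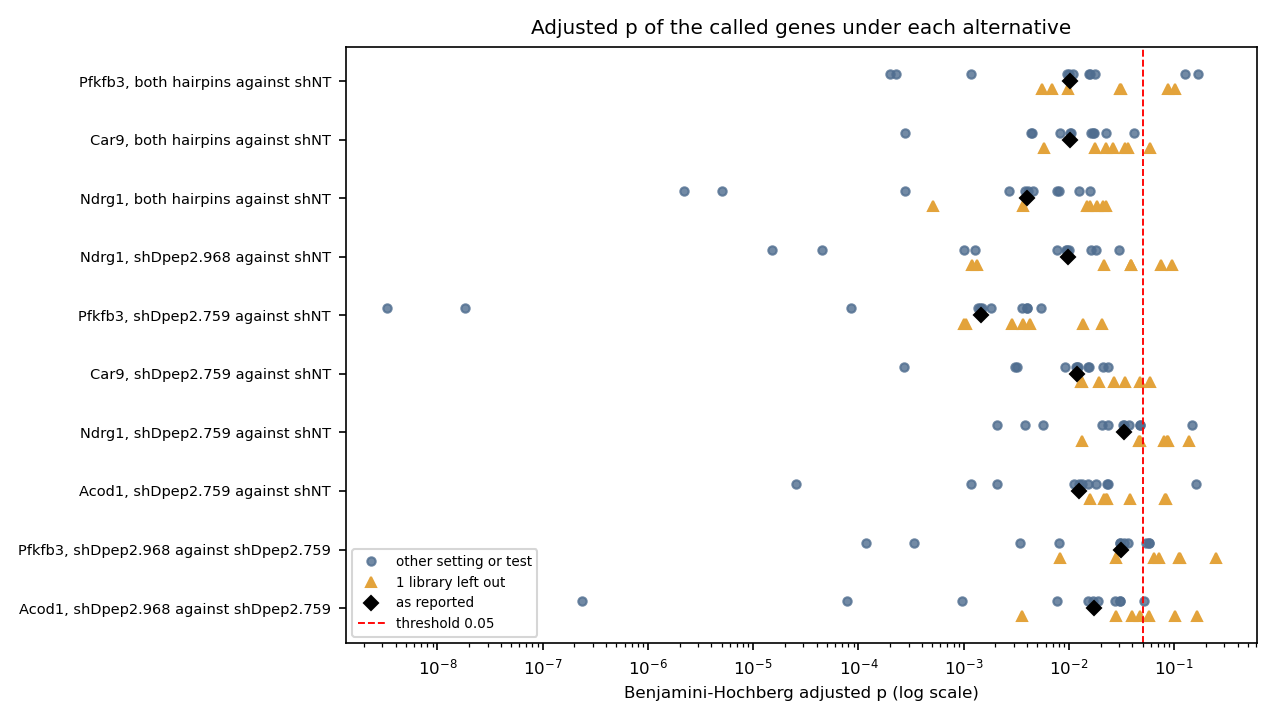
Benjamini-Hochberg adjusted p (log axis) of each called result among the 10 genes, as reported (diamond), with 1 library left out (triangles) and under other settings or tests (circles); the dashed line marks 0.05. Ndrg1 averaged over both hairpins and Pfkfb3 with shDpep2.759 lie left of the line throughout, and each of the other 8 results crosses it at least once.

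Other genes also had higher levels in both shDpep2.759 libraries than in both shDpep2.968 libraries. Libraries of the hairpins did not overlap, in either direction, for 42.9% of all tested genes. Of the 9 tested macrophage markers 0 were higher and 1 was lower with shDpep2.968 than with shDpep2.759, with log2 differences from -0.79 to 0.33. Csf1r went the other way, at a mean of 1330 CPM under shDpep2.968 and 1190 CPM under shDpep2.759. Adgre1, the macrophage surface marker F4/80, had 145 and 155 CPM under shDpep2.968, 252 and 265 CPM under shDpep2.759, and 141, 128 and 131 CPM under shNT. S100a8, which encodes a calcium-binding protein abundant in neutrophils and also made by macrophages, had 33.9 and 49.5 CPM under shDpep2.968, 236 and 99.8 CPM under shDpep2.759, and 33.1, 18.5 and 17 CPM under shNT. The 6 neutrophil markers together summed to 41.3 and 56.9 CPM with shDpep2.968, 112 and 257 CPM with shDpep2.759 and 30.7 to 44.7 CPM with shNT. Within that list Ly6g was at 0 in all 7 libraries and Mpo, Elane and S100a9 were at most 0.604 CPM. Csf3r, the receptor gene for granulocyte colony-stimulating factor, had 7.23 and 6.74 CPM under shDpep2.968, 19.9 and 12.4 CPM under shDpep2.759, and 11, 12.9 and 13.4 CPM under shNT. It fell with shDpep2.968 (log2 -0.83, edgeR adjusted p = 0.0382), where the log2 difference of S100a8 was 0.87 (edgeR adjusted p = 0.390). Csf3r and S100a8 were the 2 tested genes of the list, and 0 passed with shDpep2.759 against shNT. Between the hairpins 1 of the 2 passed, lower with shDpep2.968, where 0.840% of all tested genes passed. The part of such shifts in the values of Pfkfb3 and Acod1 was not tested.

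Pfkfb3 and Acod1, which were both high with shDpep2.759, have the following letters before their RefSeq starts, marked as for Car9. Ldha is shown beside them as the gene with the most matches and no call.
Pfkfb3, first start, chr2:11553930-11554179, reverse strand: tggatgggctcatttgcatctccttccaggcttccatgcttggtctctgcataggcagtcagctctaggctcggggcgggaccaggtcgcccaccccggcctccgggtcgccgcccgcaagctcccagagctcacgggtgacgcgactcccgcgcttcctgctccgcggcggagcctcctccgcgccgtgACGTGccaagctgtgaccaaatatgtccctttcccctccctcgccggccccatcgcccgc
Pfkfb3, second start, chr2:11502091-11502340, reverse strand: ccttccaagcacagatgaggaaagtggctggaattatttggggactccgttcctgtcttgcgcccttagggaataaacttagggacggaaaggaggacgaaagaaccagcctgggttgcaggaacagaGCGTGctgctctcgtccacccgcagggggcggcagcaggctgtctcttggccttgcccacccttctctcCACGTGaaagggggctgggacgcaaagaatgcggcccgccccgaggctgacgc
Acod1, chr14:103046762-103047011, forward strand: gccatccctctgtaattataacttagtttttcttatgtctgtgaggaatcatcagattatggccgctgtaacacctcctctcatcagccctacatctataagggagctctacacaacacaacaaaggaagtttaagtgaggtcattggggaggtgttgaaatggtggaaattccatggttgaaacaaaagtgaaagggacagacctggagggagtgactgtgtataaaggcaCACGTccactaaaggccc
Ldha, first start, chr7:46845554-46845803, forward strand: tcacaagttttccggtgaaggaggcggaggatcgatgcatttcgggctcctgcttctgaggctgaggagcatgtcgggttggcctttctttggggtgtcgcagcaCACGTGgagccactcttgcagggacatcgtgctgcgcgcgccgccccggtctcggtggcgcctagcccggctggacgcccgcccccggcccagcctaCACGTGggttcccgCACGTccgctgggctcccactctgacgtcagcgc
The 2 windows of Pfkfb3 hold 1 and 3 match starts, that of Acod1 holds 1 and that of Ldha holds 5. CACGTG counts on both strands, so it gives a pair of starts that overlap. RefSeq windows were found for 9 of the 10 genes, with 13 starts in all. No window was found for Ndrg1, so its promoter was not examined. Of the 13 windows 11 hold a match, against 38.6% of all 32851 windows of the same length. All 9 genes have a match in at least 1 window, against 41.5% of 27025 symbols. The genes were chosen by function and are expressed here, whereas the background holds every symbol with a window, expressed or not. The shares are thus not of like sets, and an enrichment was not tested. Car9 is the only gene among these 9 with a lower call against shNT.

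To see whether the wider pathways moved, 110 further genes of 8 lists were examined, of which 103 were tested. On the averaged comparison 3 were higher and 9 lower, 11.7% of those tested, against 7.59% of all tested genes, and their median log2 difference was -0.05. With shDpep2.968 2 were higher and 5 lower, 6.80% of those tested against 5.25% of all tested genes. With shDpep2.759 2 were higher and 4 lower, 5.83% against 4.73%. On the averaged comparison 3.44% of all tested genes were higher and 4.15% lower. The enzymes of glycolysis, Hk2, Pkm and Ldha included, had 0 higher and 1 lower of 18 tested, with a median of -0.09. That 1 was Aldoc, a minor aldolase form, with 40.1 and 39.0 CPM under shDpep2.968, 40.7 and 25.1 CPM under shDpep2.759, and 55.2, 72.9 and 62.8 CPM under shNT. It fell to 56.7% of shNT (edgeR adjusted p = 0.00683) and passed in all 7 fits that left out 1 library. The main aldolase gene Aldoa had 1290 and 1430 CPM under shDpep2.968, 1960 and 1760 CPM under shDpep2.759, and 1850, 2070 and 2080 CPM under shNT. It fell to 67.9% of shNT with shDpep2.968 (edgeR adjusted p = 0.0291), which was lost without either shDpep2.968 library or shNT replicate 2 or 3 (adjusted p up to 0.160). Eno1 counts are uncertain, since the near-identical Eno1b took 16494 to 20878 counts per library.

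Among glucose transporters, Slc2a1 included, 2 of 5 tested genes were lower and none higher, where 4.15% of all tested genes were lower. Slc2a6, a transporter found in inflammatory macrophages, fell to 69.3% of shNT (edgeR adjusted p = 0.0342), and Slc2a8, a transporter of internal membranes, fell to 59.4% (edgeR adjusted p = 0.0414). Neither passed when replicate 2 of either hairpin, or replicate 2 or 3 of shNT, was left out (adjusted p up to 0.155 for Slc2a6 and 0.186 for Slc2a8). Of 9 genes that control glycolysis, Pfkfb3 included, Txnip fell beside the rise of Pfkfb3 already given. Txnip, whose product limits glucose uptake, had 341 and 371 CPM under shDpep2.968, 362 and 288 CPM under shDpep2.759, and 491, 582 and 591 CPM under shNT. It fell to 61.3% of shNT on average (log2 -0.71, SE 0.12, edgeR adjusted p = 0.00335) and passed in all 7 fits without 1 library.

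Of 14 tested genes of pyruvate and lactate fate 1 was lower, where 4.15% of all tested genes were lower. This was Pdk2, another pyruvate dehydrogenase kinase gene. It had 3 to 5 counts in the hairpin libraries and 9 to 15 counts in the shNT libraries. Its call (log2 -1.66, edgeR adjusted p = 0.0413) was lost without any 1 of the 4 hairpin libraries (log2 -1.67 to -1.64). Without shNT replicate 2 or 3 its counts fell under the filter and it was not tested. Of 10 tested HIF subunits and regulators, Hif1a included, 1 was higher, where 3.44% of all tested genes were higher. Hif1an, which encodes the asparagine hydroxylase that restrains HIF, had 44.6 and 49.1 CPM under shDpep2.968, 47.9 and 54.2 CPM under shDpep2.759, and 34.0, 33.3 and 37.4 CPM under shNT. It rose 1.40-fold (edgeR adjusted p = 0.0159) and did not pass once shDpep2.968 replicate 2 (0.0624) or the shNT replicates 2 (0.120) or 3 (0.0604) were left out.

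Hypoxia-induced genes, Car9 and Ndrg1 included, moved in both directions, with 2 higher and 3 lower of 24 tested and a median of 0.02. The 3 lower ones were Car9, Ndrg1 and Ddit4. Over all tested genes 3.44% were higher and 4.15% lower. Hilpda, a lipid droplet protein gene induced by hypoxia, moved against Car9 and Ndrg1. It had 66.1 and 68.8 CPM under shDpep2.968, 79.1 and 58.2 CPM under shDpep2.759, and 36.7, 32.8 and 35.8 CPM under shNT. It rose 1.94-fold (log2 0.96, SE 0.12, edgeR adjusted p = 0.000676) and passed in all 7 fits without 1 library. Kdm3a, a histone demethylase gene, was 1.33-fold higher (edgeR adjusted p = 0.0477), and Ddit4, an inhibitor of mTOR signalling, was at 64.7% of shNT (edgeR adjusted p = 0.0480). Ddit4 did not pass when replicate 2 of either hairpin, or replicate 2 or 3 of shNT, was left out (adjusted p up to 0.198), and Kdm3a failed in those fits and when shNT replicate 1 was left out (up to 0.221). Car12, another carbonic anhydrase gene, was 1.37-fold higher with shDpep2.968 (edgeR adjusted p = 0.0499), which 5 of the 7 fits without 1 library did not keep: the fits lacking 1 of the 5 libraries of shDpep2.968 or shNT (adjusted p up to 0.304).

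**Figure D4:**
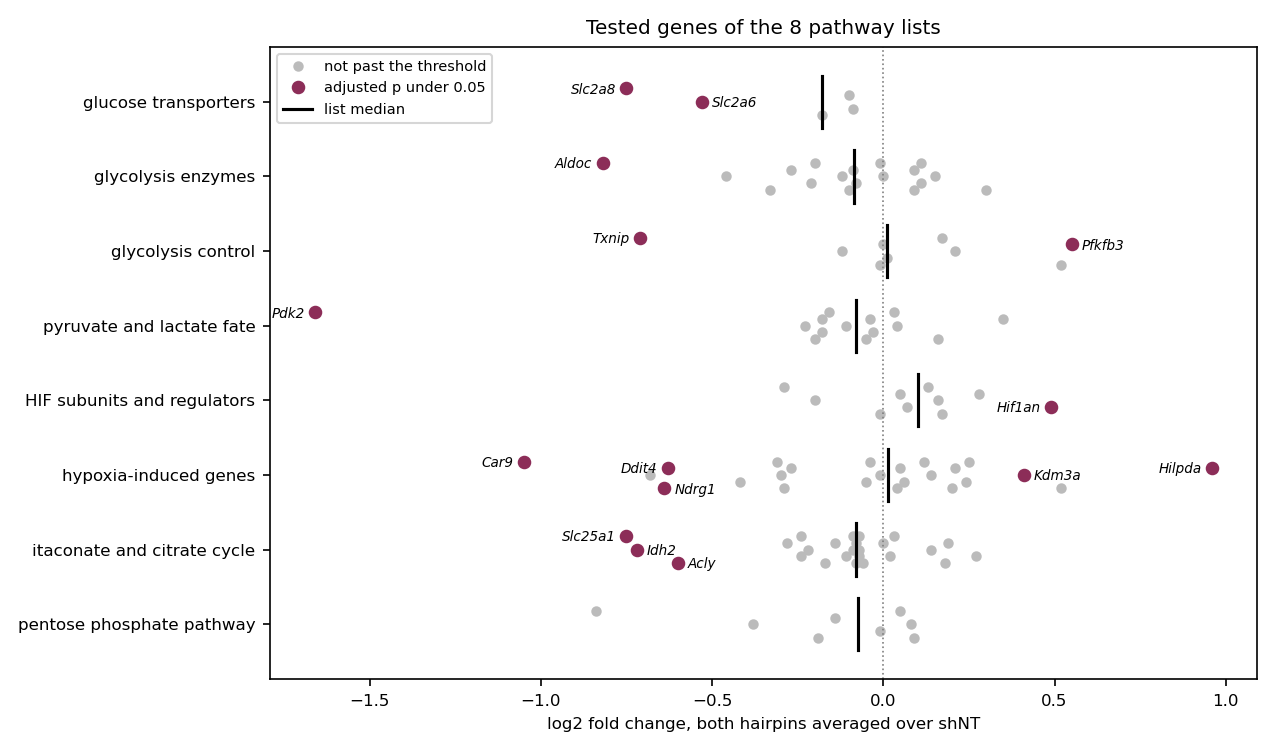
Log2 fold change of both hairpins averaged over shNT (horizontal axis) for the tested genes of the 8 lists (rows); purple points have an edgeR adjusted p under 0.05 and are named, grey points do not pass, and black bars are list medians. List medians lie between -0.18 and 0.10, and the named points lie on both sides of 0.

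Around the citrate cycle, 0 of 25 tested genes, Acod1 included, were higher and 3 lower, against 3.44% and 4.15% of all tested genes. The lower ones handle citrate and isocitrate. Slc25a1, the mitochondrial citrate carrier gene, fell to 59.5% of shNT (edgeR adjusted p = 0.00184), and Idh2, the mitochondrial isocitrate dehydrogenase gene, fell to 60.7% (edgeR adjusted p = 0.00408). Both passed in all 7 fits without 1 library. With shDpep2.759 Idh2 was at 50.7% of shNT (edgeR adjusted p = 0.00299). With shDpep2.968 it was at 72.7% and did not pass (edgeR adjusted p = 0.0939). Acly, which splits exported citrate into acetyl-CoA, had 199 and 158 CPM under shDpep2.968, 301 and 295 CPM under shDpep2.759, and 320, 386 and 342 CPM under shNT. Its average of 66.0% of shNT (edgeR adjusted p = 0.00698) was lost when shNT replicate 2 was left out (0.0533) and when the 4 hairpin libraries formed 1 group (0.175). Acly was also lower with shDpep2.968 than with shDpep2.759, as Acod1 was (log2 -0.74, edgeR adjusted p = 0.0401), a call that only the fit without shDpep2.759 replicate 2 kept among those without 1 library (adjusted p up to 0.425). None of 8 pentose phosphate pathway genes passed, and 2 of them had an unadjusted p under 0.05, as 22.9% of all tested genes did. The lowest p belonged to Shpk, a sedoheptulose kinase gene that restrains macrophage activation, with 22 to 39 counts in hairpin libraries and 44 to 63 counts in shNT libraries (log2 -0.84, edgeR adjusted p = 0.0619). The next was Rpia, which encodes ribose 5-phosphate isomerase (log2 -0.38, edgeR adjusted p = 0.162).

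For each of the 3 genes called on average, the 3 tested genes with a mean of at least 5 CPM whose mean-centred log2 CPM profile over the 7 libraries was closest were listed, as a description of these libraries. Pfkfb3 was closest to Adgre1, Glrx, a glutaredoxin gene, and Ctsc, a lysosomal protease gene, with root mean square differences of 0.10, 0.10 and 0.11 on the log2 scale. Ctsc had 308 and 330 CPM under shDpep2.968, 691 and 605 CPM under shDpep2.759, and 365, 289 and 269 CPM under shNT. Ndrg1 was closest to Arhgap18, Inpp5k and Tmem74, at 0.07, 0.08 and 0.09. Car9 was closest to Ift81, the cyclooxygenase gene Ptgs1 and Nherf2, at 0.20, 0.21 and 0.23, and it has the lowest counts of these 3 genes.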

How the data were processed

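Stranded total RNA libraries of RAW264.7 cells (7 libraries) were read as paired ends, per the labels' protocols. The authors deposited whole-number counts per mouse gene symbol, not normalized. The submitters' processing notes name Trim Galore, Salmon and the build hg38, a human build, although the symbols are mouse. Whether the counts are rounded Salmon estimates, and with which versions and strand setting, is not given in the sources used here.

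From the deposited counts, genes were filtered with filterByExpr, scaled by TMM and tested with edgeR 4.0.16 (robust quasi-likelihood, R 4.3.3). The fit had 1 mean per group over all 7 libraries and 4 residual degrees of freedom, and p was adjusted over 13329 genes by Benjamini-Hochberg with a threshold of 0.05. All CPM are counts per 1000000 of the library total after TMM scaling of that total. Transcript length and GC content came from the longest GENCODE transcript, and windows of 250 bases from RefSeq (GRCm38.p6). Replicate libraries differed by 14.2 to 41.0 times counting noise (chi-square per degree of freedom), so none is a copy of another library's counts. This cannot tell separate cultures from separate preparations of the same RNA. Common biological variation was 13.8%.

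The genes and lists were chosen with earlier results of these data known. Named are the 10 genes, Dpep2, list genes past the threshold, up to 2 genes with the smallest p where a list had none, and 3 nearest profiles per gene called on average; other cell type markers are named as checks. Alternatives were RLE scaling, library size alone, other filters, no robust estimation, a replicate block, GC and length correction, pooled hairpins, only the groups compared, limma-voom (3.58.1), DESeq2 (1.42.0) and each library left out.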

Additional observations from a re-analysis of the deposited data

Results flagged for a closer look

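Pfkfb3 and Acod1 had effects against shNT that differed between the hairpins by a test of the difference itself. For Pfkfb3 shDpep2.968 minus shDpep2.759 was -0.77 on the log2 scale (edgeR adjusted p = 0.0315), with 114 and 118 CPM under shDpep2.968 and 189 and 205 CPM under shDpep2.759. For Acod1 it was -0.84 (edgeR adjusted p = 0.0173), with 670 and 714 CPM under shDpep2.968 and 1210 and 1260 CPM under shDpep2.759. All 4 values of each gene fall on separate sides by hairpin, as they do for 42.9% of all tested genes. Neither call was kept without shNT replicate 3 or in a fit of the 4 hairpin libraries alone. Groups of 2 or 3 libraries are too small to look for single libraries that stand apart within a group.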

How the results depend on the processing

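Of 1256 values of single genes under another setting, 1098 kept their direction and side of the threshold, 131 kept their direction but no longer passed, and 27 changed sign. No call changed sign, and for the sign changes and lost calls the cause was not tested. Genes called on average numbered 1012, against 1590 with no filter, 404 with the replicate block, 2143 with GC and length correction, 540 with hairpins as 1 group and 321 to 1468 without 1 library (past 1.5 times: 492 without shDpep2.968 replicate 2, 356 without shNT replicate 2, 321 without shNT replicate 3). Without 1 library 1 to 3 of the 10 genes were called. For shDpep2.968 against shNT the 700 genes became 1443 with no filter, 308 with the block, 1758 with GC correction, 1350 with only the groups compared and 69 to 1309 without 1 library (past 1.5 times: 401 and 69 lacking shDpep2.968 replicate 1 and 2, 1305 and 1309 lacking shDpep2.759 replicate 1 and 2, 218 and 191 lacking shNT replicate 2 and 3), with 0 to 1 of the 10. For shDpep2.759 against shNT the 630 became 1131 with no filter, 312 with the block, 1669 with GC correction and 253 to 768 without 1 library (299 and 253 without shNT replicate 2 and 3), with 2 to 4 of the 10 and 2 with the block. Between the hairpins the 112 became 669 with no filter, 63 without robust estimation, 556 with GC correction (46.6% of them higher, against 30.4% as reported), 333 with GC correction and the block, 61 with only the groups compared, 54 with limma-voom, 376 with DESeq2 and 6 to 1070 without 1 library (past 1.5 times: 13 and 6 without shDpep2.968 replicate 1 and 2, 33 and 1070 on leaving out shDpep2.759 replicate 1 and 2, 71 and 28 on leaving out shNT replicate 2 and 3). Of the 10 genes 1 was called without robust estimation, 1 with limma-voom, 0 with only the groups compared and 0 to 2 without 1 library.

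Libraries share only a replicate number, and the labels do not say whether same-numbered libraries were handled together. Deviations from group means correlated at 0.13 between same-numbered libraries of the hairpins and at -0.39 to -0.27 with shNT. The libraries of a hairpin deviate from their mean in mirror image, so the value of 0.13 holds no repeat. Such correlations cannot show how libraries were laid out, and whether the block is a pairing by design was not tested. With the block Pfkfb3 averaged gave 0.48 (edgeR adjusted p = 0.126), and with shDpep2.759 Ndrg1 gave -0.59 (0.149) and Acod1 0.59 (0.161); the other 7 calls among the 10 genes were kept.

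Sign changes touched only results that were not called, with reported log2 differences of at most 0.24 in size (Hif1a between the hairpins). Pkm averaged was 0.04 with GC correction and 0.07 with the block added, and with shDpep2.968 it was 0.01 with the block, 0.17 with GC correction, 0.20 with both and -0.09 to 0.03 without 1 library. Slc2a1 with shDpep2.968 was 0.05 with GC correction and 0.03 with the block added. Ldha with shDpep2.759 was -0.01 by library size alone, -0.01 with the block, -0.02 with GC correction, -0.05 with both and -0.08 to 0.10 without 1 library. Hif1a with shDpep2.968 was -0.07 with GC correction and -0.07 with the block added. Without 1 library Hif1a ranged from -0.13 to 0.10 on average, -0.14 to 0.33 with shDpep2.968, -0.33 to 0.04 with shDpep2.759 and -0.01 to 0.47 between the hairpins, Hk2 with shDpep2.968 from 0.00 to 0.07, and between the hairpins Dpep2 from -0.30 to 0.05 and Pdk1 from -0.03 to 0.21. Across genes the averaged log2 difference followed GC content (Spearman's rho -0.25; genes are not independent), with GC known for 95.7% of tested and 96.0% of called genes. Low counts limit the precision of Car9 (29 to 102 counts per library), Shpk (22 to 63) and Pdk2 (3 to 15).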
